A study of Mus musculus with 12 samples.

Results

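Mouse primordial germ cells, the embryonic precursors of eggs and sperm, were compared between embryonic day 9.5 (E9.5), while they migrate, and E11.5, when they have reached the genital ridge. The comparison takes the rows with a completed test in the authors' deposited table for these stages, which is 12904 of 22552 genes. Of the others, 9321 were not tested, 221 failed in the fit and 106 had too little data. The 4 libraries, 2 per stage, came from wild-type C57BL/6 embryos, and each was made from 400 to 5000 cells whose cDNA was amplified to between 2 and 70 ng. The labels give neither the sex of these embryos nor the way the cells were isolated, and do not say whether libraries of a stage came from separate embryos. The series holds 12 libraries in all, the others being of E13.5 germ cells, with or without Tet1. The table holds 1 pooled level per gene and stage in FPKM (fragments counted per unit of transcript length and of mapped library), so no spread between libraries can be shown and the sequencing depth is unknown. Errors given with a log2 ratio (E11.5 over E9.5) are the standard errors (SE) implied by the deposited test statistic. How far they reflect the spread between libraries is not known from the sources used here, and any such spread may be technical. Positions are loci as the table gives them (build mm9), and a locus can reach beyond the gene.

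Germ cells of the mouse are set aside from the early embryo, move through the hindgut and its mesentery, and enter the genital ridges. In the same period they lose most of their DNA methylation, including that of parental imprints and of germline promoters that stay methylated in somatic cells. Once in the ridge they switch on genes for RNA regulation, transposon silencing and meiosis that are typical of germ cells of either sex.

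The labelled cell type was checked on its markers. Pou5f1 and Dppa3, which mark germ cells at both stages, were at 795 and 1274 FPKM at E9.5 and at 696 and 1514 FPKM at E11.5. The gonadal germ cell markers Dazl, Ddx4 and Asz1 were listed at 2.24, 10.3 and 1.44 FPKM at E9.5 and at 355, 176 and 157 FPKM at E11.5. Both stages thus carried germ cell RNA, and the later markers were high in the later stage. Hbb-y, an embryonic globin gene of red blood cells and not of germ cells, was at 869 and 10.8 FPKM, so a transcript of another cell type was present, mostly at E9.5.

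A gene is said to have risen or fallen, or to be called, where its q-value in the authors' deposited table was below 0.05. By that rule 479 genes (3.71% of those tested) rose to E11.5 and 248 (1.92%) fell. Rises outnumbered falls, but most genes leaned the same way: of the 12904 tested genes 8641 had the higher level at E11.5 and 4263 the lower. The median log2 ratio was 0.32 over the 9685 genes at 1 FPKM or more in both stages. Tested relative to that median, 227 of the 12145 genes with an SE rose (1.87%) and 339 fell (2.79%, adjusted p below 0.05 by a normal test on the ratio and its SE). Rises made up 65.9% of the deposited calls and 40.1% of the calls relative to the median. Of the 248 falls, 247 have an SE and all 247 were also falls relative to the median. Of the 448 rises with an SE, 227 were. The direction of a small rise therefore depends on the scaling. Median changes of the gene lists below are to be read against that of all tested genes, 0.29 on the log2(FPKM + 1) scale. Likewise, calls in a list are to be read against the 3.71% and 1.92% above. The lists overlap, so a gene can be counted in more than 1 of them.

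**Figure D1:**
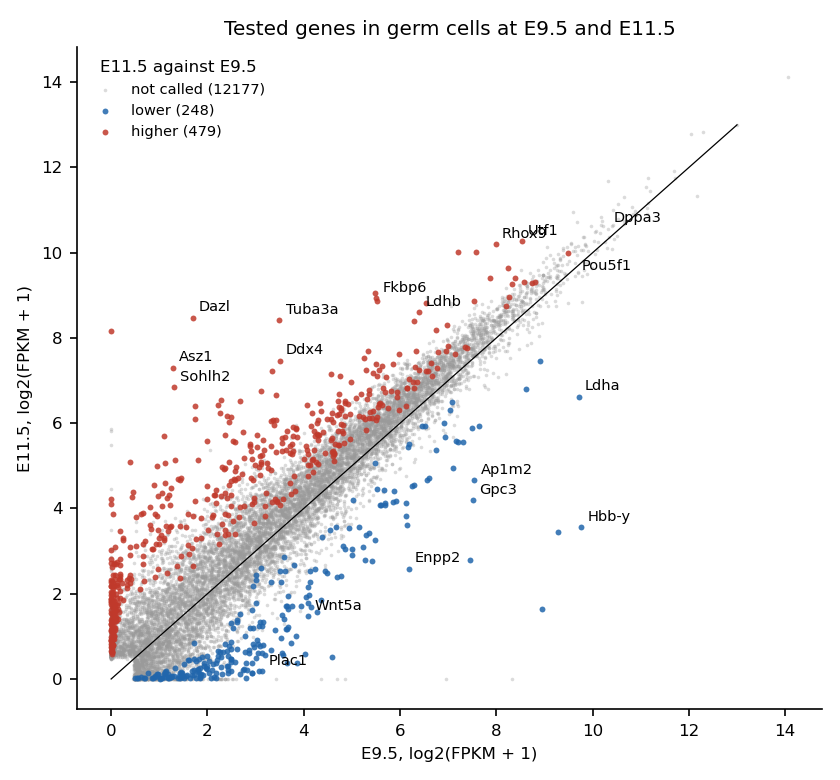
Each point is 1 of the 12904 tested genes, by its level at E9.5 (horizontal axis) and at E11.5 (vertical axis), both as log2(FPKM + 1). The line marks equal levels. The 479 genes called higher are red and the 248 called lower are blue, with germ cell genes such as Dazl and Asz1 far above the line and Hbb-y and Ldha far below it.

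The list with the highest median was that of germline genes known for promoter methylation in somatic cells. Of its 25 members 22 were tested, of which 18 rose, against 3.71% of all tested genes, and 0 fell. A member that was low at E9.5 could enter the test only through its level at E11.5, so these counts describe the tested members and not the whole list. Its median change was 3.52 on the log2(FPKM + 1) scale against 0.29 for all tested genes, and 15 of the 21 members with an SE also rose relative to the median. All 22 tested members had a higher level at E11.5 than at E9.5. Several sit at promoters rich in CpG, the dinucleotide that carries the methylation mark. The promoter windows below, 250 bases before to 50 bases after the annotated start, are from RefSeq (build GRCm38.p6) and show such a promoter beside that of an embryonic globin gene whose transcript fell. Capitals mark each CpG.
Dazl, chr17:50293571-50293870, minus strand: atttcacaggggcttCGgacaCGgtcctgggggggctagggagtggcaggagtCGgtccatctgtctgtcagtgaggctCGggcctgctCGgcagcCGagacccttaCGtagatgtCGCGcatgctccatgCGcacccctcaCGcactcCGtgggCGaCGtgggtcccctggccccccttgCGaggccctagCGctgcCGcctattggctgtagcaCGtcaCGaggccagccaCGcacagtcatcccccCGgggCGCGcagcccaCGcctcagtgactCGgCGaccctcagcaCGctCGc
Hbb-y, chr7:103853158-103853457, minus strand: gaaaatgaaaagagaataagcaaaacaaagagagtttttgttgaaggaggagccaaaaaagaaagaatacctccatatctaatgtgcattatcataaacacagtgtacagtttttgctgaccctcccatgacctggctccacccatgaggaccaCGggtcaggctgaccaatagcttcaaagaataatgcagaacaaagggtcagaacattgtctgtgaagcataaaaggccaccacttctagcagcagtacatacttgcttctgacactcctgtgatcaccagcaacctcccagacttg
The Dazl window holds 28 CpG and the Hbb-y window 1, against a median of 7 over 27025 genes with a window. Over 9095 tested genes with one the median was 21. It was 19 for those that rose, 15 for those that fell and 21 for those not called. Over the 20 tested members of this list with a window it was 20.5, near that of all tested genes. The hexamer CACGTG, which reads alike on both strands and contains a CpG, was found in the windows of 11 of those 20 members, or 55.0%. It was found in 7.24% of all windows and in 10.4% of those of tested genes. Among called genes it was in 13.3% of the windows of those that rose and 9.88% of those that fell. Hormad1, Sycp3 and Fkbp6 each hold 2 copies, in capitals here.
Hormad1, chr3:95559427-95559726, plus strand: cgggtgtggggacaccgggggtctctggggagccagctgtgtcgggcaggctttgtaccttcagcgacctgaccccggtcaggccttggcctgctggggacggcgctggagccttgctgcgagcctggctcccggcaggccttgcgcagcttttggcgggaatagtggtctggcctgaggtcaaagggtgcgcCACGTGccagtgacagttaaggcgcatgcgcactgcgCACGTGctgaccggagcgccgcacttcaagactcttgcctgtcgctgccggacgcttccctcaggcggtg
Sycp3, chr10:88459337-88459636, plus strand: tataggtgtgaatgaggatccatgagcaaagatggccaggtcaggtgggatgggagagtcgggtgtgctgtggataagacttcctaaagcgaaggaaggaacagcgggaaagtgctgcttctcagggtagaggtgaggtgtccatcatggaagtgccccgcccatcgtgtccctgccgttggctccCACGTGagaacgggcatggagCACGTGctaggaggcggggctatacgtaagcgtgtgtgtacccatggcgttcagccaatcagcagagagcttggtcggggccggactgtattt
Fkbp6, chr5:135349995-135350294, minus strand: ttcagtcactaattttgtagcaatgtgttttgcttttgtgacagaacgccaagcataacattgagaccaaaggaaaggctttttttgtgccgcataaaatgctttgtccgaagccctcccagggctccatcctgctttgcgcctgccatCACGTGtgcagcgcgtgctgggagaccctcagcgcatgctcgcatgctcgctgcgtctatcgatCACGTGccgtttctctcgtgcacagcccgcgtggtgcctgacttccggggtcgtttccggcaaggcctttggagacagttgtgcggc
The first copies begin 57, 64 and 101 bases before the start, and the second ones 20, 43 and 37 bases before it. Dazl, Asz1, Smc1b, Sohlh2, Tuba3a, Tuba3b, Rpl10l and Syce1 rose with no copy in their windows. Brdt and Taf7l hold a copy and were not called. These letter matches are descriptions only, and no binding or methylation was measured in these samples.

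Fkbp6 (chromosome 5, 135767574 to 135825861), which encodes a co-chaperone of the piRNA pathway and meiosis, rose from 44.4 to 488 FPKM with a log2 ratio of 3.46 ± 0.52 (SE). Hormad1 of the meiotic chromosome axis rose from 2.95 to 47.0 FPKM. Sycp3, of the axial element of the synaptonemal complex that joins homologous chromosomes, rose from 7.17 to 52.2 FPKM. Sycp3 overlaps Chpt1, listed at 31.8 FPKM at both stages, and whether reads were counted by strand is not given in the sources used here. All 3 were thus already detected at E9.5 and stood between 7.27- and 15.9-fold higher at E11.5.

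Slc25a31, a germ cell form of the mitochondrial ADP/ATP carrier, rose from 3.64 to 85.6 FPKM with a log2 ratio of 4.56 ± 0.83 (SE). Stk31, which encodes a Tudor-domain kinase, rose from 9.0 to 65.9 FPKM. Tex11, an X-linked meiosis gene, rose from 0.972 to 18.6 FPKM. Sohlh2, a transcription factor gene of later germ cells, rose from 1.46 to 114 FPKM, and the meiotic cohesin gene Smc1b from 0.939 to 30.7 FPKM. These genes span a wide range of starting levels before their rise.

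The testis alpha-tubulin genes Tuba3a and Tuba3b are close copies, so the authors' counting could split their reads and the level of each is uncertain. Tuba3a was listed at 10.3 and 339.5 FPKM and Tuba3b at 1.16 and 50.7 FPKM, and both rose. Members that were not called had low levels, a small change or a large error. Brdt, a testis bromodomain gene, was at 0.635 and 7.13 FPKM with a log2 ratio of 3.49 ± 1.65 (SE), Taf7l was listed at 0 and 2.08 FPKM, and Tex101 was at 10.5 and 19.7 FPKM.

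**Figure D2:**
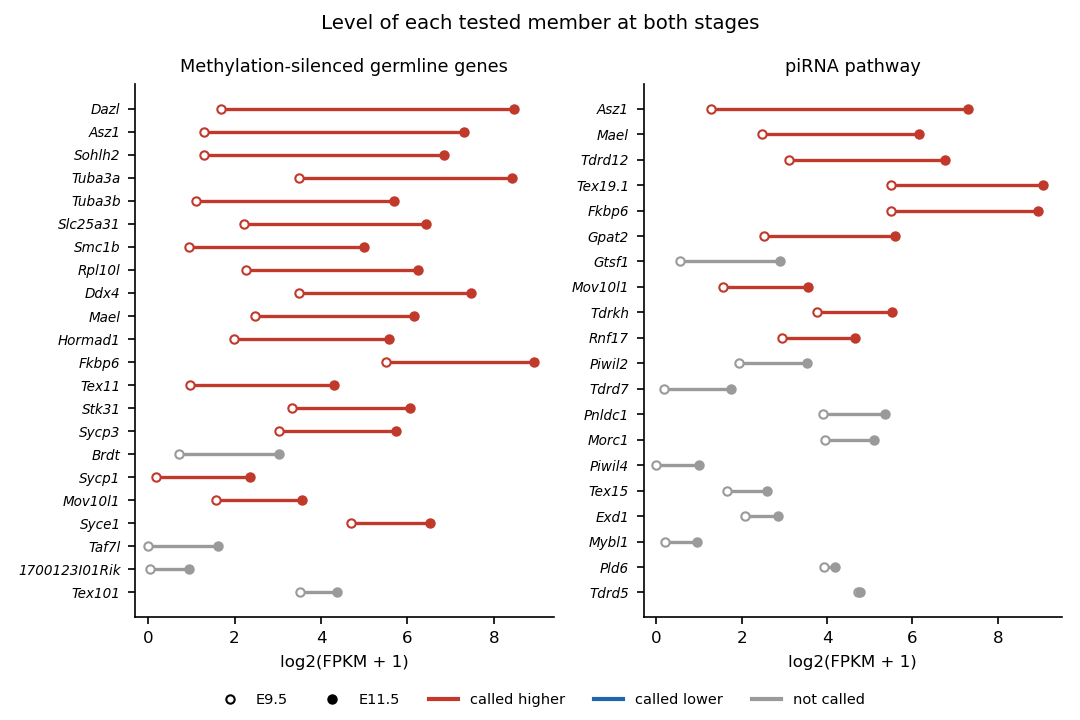
Open circles give the level at E9.5 and filled circles that at E11.5, as log2(FPKM + 1), for each tested member of the list of methylation-silenced germline genes (left) and of the piRNA pathway (right). Red lines mark genes called higher and grey lines genes not called. The filled circle lies to the right of the open one for each member.

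Germ cells silence transposons with piRNAs, small RNAs bound by PIWI proteins and made in granules that hold many Tudor-domain proteins. Of 20 tested genes of this pathway 9 rose (6 relative to the median) and 0 fell, with a median change of 1.65 on the log2(FPKM + 1) scale. Tdrd12, a Tudor-domain helicase gene, rose from 7.68 to 107 FPKM (log2 ratio 3.80 ± 0.68, SE). Gpat2, whose mitochondrial acyltransferase takes part in piRNA production, rose from 4.77 to 47.0 FPKM. Mael, a nuage component gene (chromosome 1, 168131516 to 168168875), rose from 4.58 to 70.4 FPKM.

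Tex19.1 (chromosome 11, 121007457 to 121009627), a mammalian germ cell gene that restrains retrotransposons, rose from 43.8 to 530.4 FPKM, the highest level of the list at E11.5. Tdrkh, the partner of PIWI proteins on mitochondria, rose from 12.5 to 45.0 FPKM and did not pass relative to the median. Mov10l1, the helicase that starts piRNA processing, rose from 1.96 to 10.8 FPKM and Rnf17 from 6.74 to 24.2 FPKM, and neither of these passed it either. The PIWI genes themselves were low: Piwil2 was at 2.85 and 10.6 FPKM and Piwil4 was listed at 0 and 0.988 FPKM, and neither was called. Tdrd5, at 25.3 and 26.2 FPKM, had a log2 ratio of 0.05 ± 0.48 (SE). Piwil1, Tdrd1 and Tdrd9 had no completed test.

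RNA-binding proteins control which germ cell messages are translated. Of 20 tested genes of this kind 4 rose (3 relative to the median), against 3.71% of all tested genes, and 0 fell. Their median change was 0.42 on the log2(FPKM + 1) scale, near the 0.29 of all tested genes, and 12 were higher and 8 lower at E11.5. Cpeb1, which directs cytoplasmic polyadenylation, rose from 5.63 to 54.3 FPKM with a log2 ratio of 3.27 ± 0.71 (SE), joining Dazl, Ddx4 and Rnf17. Genes needed for germ cell survival at earlier stages were already present and were not called: Dnd1 was at 201 and 288 FPKM and Nanos3 at 30.2 and 42.9 FPKM. Lin28a, at 43.8 and 38.6 FPKM, had a log2 ratio of -0.18 ± 0.46 (SE). The list thus holds late genes that rose from low levels and early genes that were not called.

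In the embryo meiosis starts after E11.5 and in females, yet part of its gene set had risen by then. Of 40 tested meiosis genes 10 rose (7 relative to the median) and 0 fell, with a median change of 0.93 on the log2(FPKM + 1) scale. The 10 include structural genes of the chromosome axis and synaptonemal complex. Syce1, of its central element, rose from 25.1 to 90.9 FPKM. Sycp1, of its transverse filaments, rose from 0.133 to 4.10 FPKM, and Sycp2 from 0.00642 to 0.924 FPKM, both low throughout. Neither Syce1 nor Sycp1 passed relative to the median.

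Rec114, which acts in forming meiotic DNA breaks and is named 2410076I21Rik in the table, rose from 2.51 to 33.9 FPKM. Zcwpw1, which encodes a reader of histone marks at those breaks, rose from 29.1 to 86.8 FPKM (log2 ratio 1.58 ± 0.51, SE) and did not pass relative to the median. Both share a locus in the table with another gene, so part of their reads may belong to it. Genes of strand exchange and cohesion were mostly not called. Trip13 was at 65.6 and 126 FPKM, Hsf2bp at 14.6 and 39.5 FPKM, Rec8 at 9.81 and 6.47 FPKM and Stag3 at 7.40 and 9.83 FPKM. Stra8, the gene that gates meiotic entry, had no completed test.

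The Rhox homeobox cluster, the Mage genes and the Xlr genes lie on the X chromosome and are active in germ cells or testis. Of 55 tested members of these families and of the testis-expressed Tex genes 15 rose (12 relative to the median) and 1 fell, with a median change of 1.45 on the log2(FPKM + 1) scale. Rhox6 rose from 189 to 1035 FPKM and Rhox9 from 253 to 1179 FPKM, with log2 ratios of 2.45 ± 0.48 and 2.22 ± 0.47 (SE). They were the most abundant Rhox genes at both stages. Rhox1 rose from 1.37 to 21.3 FPKM and Rhox13 from 0.0338 to 3.78 FPKM.

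The 8 Rhox2 and 7 Rhox4 genes are near-identical copies between which the counting could split reads, so their summed level is more telling than any of them. The sum was 10.1 and 148 FPKM for Rhox2, of which 4 copies were called, and 25.3 and 76.6 FPKM for Rhox4, of which 0 were called. Each of the 22 tested Rhox genes had a higher level at E11.5, which leaves out the untested ones among 31 listed. At E9.5, 10 of the 31 were listed at 0. Mageb4 rose from 0.306 to 33.0 FPKM and Mageb16 from 9.80 to 99.6 FPKM, with log2 ratios of 6.75 ± 1.21 and 3.34 ± 0.36 (SE). Trap1a, a tumour rejection antigen gene, rose from 2.34 to 83.4 FPKM. Magee2 was the 1 member that fell, from 1.16 to 0.0334 FPKM.

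Calls were somewhat denser on the X chromosome in both directions. Of its 515 tested genes 5.83% rose and 3.69% fell, against 3.63% and 1.84% of the 12382 autosomal ones. Among single autosomes the share that rose ran from 2.34% to 5.14% and the share that fell from 1.15% to 2.61%. Of the 30 X-linked rises 14 belonged to the Rhox, Mage, Xlr and Tex families or were Trap1a. The X-linked falls, named here after their values were seen, included the retrotransposon-derived genes Cxx1a, from 31.2 to 7.35 FPKM, Cxx1b, from 36.7 to 7.54 FPKM, and Cxx1c, from 19.6 to 2.62 FPKM, which are close copies. The median log2 ratio was 0.39 on the X chromosome and between 0.24 and 0.35 on the autosomes.

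The list of germ cell specification and early germ cell genes had calls in both directions. Of 18 tested early germ cell genes 3 rose and 2 fell (3 and 4 relative to the median), against 3.71% and 1.92% of all tested genes, and the median change was -0.46 on the log2(FPKM + 1) scale. The 3 that rose were Rhox6, Rhox9 and Tcl1, an Akt co-activator gene, which went from 92.5 to 448 FPKM with a log2 ratio of 2.28 ± 0.47 (SE). Rhox6 and Rhox9 were already counted with the Rhox genes above, and Tcl1 is also in the list of pluripotency genes below. Fgf8, a growth factor of the primitive streak and tail bud, fell from 4.65 to 0.322 FPKM, and Sall1, a zinc-finger gene, from 6.81 to 0.680 FPKM. Prdm1, the repressor that founds the lineage, was at 11.4 and 3.62 FPKM and was not called, with a log2 ratio of -1.66 ± 0.62 (SE), but it passed as a fall relative to the median.

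The abundant early markers were not called. Dppa3 (Stella) was at 1274 and 1514 FPKM, Ifitm3 (Fragilis) at 880.3 and 456 FPKM, and Tfap2c, named Tcfap2c in the table, at 353 and 213 FPKM. Prdm14, which represses DNA methyltransferase genes, was at 67.1 and 55.3 FPKM. Kit, the receptor for the survival factor KITL, was at 32.9 and 15.1 FPKM with a 95% interval of its log2 ratio from -2.23 to -0.02. Kit and Prdm1 thus had the lower level at E11.5, and neither difference passed the deposited threshold.

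Pluripotency genes held rises beside uncalled core factors. Of 29 tested members 8 rose and 0 fell (6 and 1 relative to the median), against 3.71% and 1.92% of all tested genes, with a median change of 0.52 on the log2(FPKM + 1) scale. The core factors were not called: Pou5f1 (Oct4) was at 795 and 696 FPKM, Sox2 at 66.4 and 52.3 FPKM and Nanog at 77.3 and 127 FPKM, with log2 ratios of -0.19 ± 0.47, -0.35 ± 0.47 and 0.72 ± 0.48 (SE). Utf1, a chromatin-bound factor of stem cells, rose from 368 to 1229.7 FPKM. Fbxo15, an F-box gene regulated by Oct4, rose from 36.9 to 184 FPKM and shares its locus with 1700034H14Rik, at 48.7 and 29.6 FPKM. Nr0b1 rose from 5.21 to 25.5 FPKM and Dppa2 from 12.8 to 50.9 FPKM, and neither passed relative to the median.

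Nodal is a signal of the TGF-beta family that acts through activin receptors and the co-receptor Cripto (Tdgf1) and induces its own antagonists, Lefty1 and Lefty2. The ligand gene Nodal was low, at 0.50 and 0.58 FPKM, and was not called. Tdgf1 rose from 9.06 to 43.4 FPKM (log2 ratio 2.26 ± 0.66, SE). Lefty1 rose from 7.16 to 42.8 FPKM and Lefty2 from 9.11 to 149 FPKM. These were 3 rises among 14 tested genes (1 relative to the median, Lefty2), with 0 falls, against 3.71% and 1.92% of all tested genes. The receptors and SMAD proteins were not called, as with Acvr2b at 25.9 and 25.7 FPKM and Smad2 at 40.4 and 58.0 FPKM. The list median of 0.03 on the log2(FPKM + 1) scale lay below the 0.29 of all tested genes.

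Other signalling pathways gave 1 or 2 calls each or none, against 3.71% rises and 1.92% falls over all tested genes. Msx1, a homeobox target of BMP signalling, fell from 93.0 to 24.4 FPKM, 1 of 18 tested BMP genes to be called. The related Msx2, at 68.3 and 26.4 FPKM, and Id3, at 456 and 612 FPKM, were not called, but Msx2 passed as a fall relative to the median. Wnt5a (chromosome 14, 29318659 to 29338620), a ligand that guides migrating germ cells through Ror2, fell from 16.1 to 1.78 FPKM with a log2 ratio of -3.17 ± 0.64 (SE), 1 of 26 tested Wnt genes to be called. Ror2 was at 12.5 and 7.54 FPKM. Of 14 tested FGF genes 1 rose and 1, Fgf8, fell (1 and 2 relative to the median). Etv4, an FGF-induced ETS factor gene, rose from 25.5 to 102 FPKM, while its relative Etv5 was at 116 and 159 FPKM and was not called. Of 12 tested retinoic acid genes 0 were called. Rarg, a receptor gene, was at 7.84 and 21.8 FPKM.

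Migration and adhesion genes gave 1 call. Of 25 tested members 0 rose and 1 fell: Cd24a, a surface glycoprotein gene, went from 477 to 176 FPKM with a log2 ratio of -1.44 ± 0.46 (SE). Cdh1 (E-cadherin) was at 15.4 and 9.19 FPKM, Itgb1 (integrin beta 1) at 26.9 and 22.2 FPKM and Cxcr4, the receptor for the guidance signal CXCL12, at 1.58 and 1.04 FPKM. None of these 3 was called, and each interval included 0.

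The enzymes that set or remove DNA methylation gave 1 call among 22 tested genes. Ung, a uracil glycosylase gene of base excision repair, rose from 444 to 633 FPKM with a log2 ratio of 0.51 ± 0.12 (SE) and was not called relative to the median. Dnmt1 and Uhrf1, which copy methylation after replication, were listed at 23.2 and 35.5 FPKM and at 5.57 and 7.70 FPKM, but their fits failed in the table. Dnmt3a was at 8.83 and 13.2 FPKM. Of 38 tested histone-modifying genes 0 rose and 2 fell. Kdm6b, a demethylase gene for H3K27, fell from 2.31 to 0.378 FPKM. Mga, a subunit gene of a repressor complex with E2F6 and PCGF6, fell from 11.1 to 6.27 FPKM, a small change with a small error (log2 ratio -0.82 ± 0.19, SE). E2f6 was at 32.4 and 32.9 FPKM and Pcgf6 at 80.0 and 92.2 FPKM, and neither was called.

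Imprinted genes, of which 1 parental copy is silenced, leaned down. Of 48 tested 0 rose and 6 fell (7 relative to the median), against 1.92% falls over all tested genes, with a median change of -0.36 on the log2(FPKM + 1) scale. Phlda2, a maternally expressed growth restrainer of the placenta, fell from 393 to 110.3 FPKM with a log2 ratio of -1.83 ± 0.49 (SE). Dlk1, Meg3 and Rian belong to 1 imprinted domain on chromosome 12 and all fell. Dlk1, expressed from the paternal copy, went from 2.29 to 0.163 FPKM, and Rian, a maternally expressed non-coding RNA, from 4.35 to 0.464 FPKM. Grb10, a restrainer of growth signals, fell from 13.3 to 1.02 FPKM, Meg3 from 20.7 to 4.78 FPKM and Peg10 from 2.40 to 0.334 FPKM. Abundant members such as Snurf, at 161 and 152 FPKM, Ndn, at 47.4 and 68.7 FPKM, and Peg3, at 30.1 and 20.9 FPKM, were not called. The summed level of erythroid markers was 2115 and 70.3 FPKM at the same stages. That of gut markers was 300.5 and 117 FPKM, most of it from the tight junction gene Cldn7. The sums of other cell types were not lower at E11.5. They were 263 and 266 FPKM for mesenchyme, 122 and 138 for endothelial and 18.6 and 39.4 for neural markers. For macrophage markers they were 6.94 and 21.6 FPKM, and for gonadal and mesonephric soma 29.4 and 88.9 FPKM. The part of RNA of other cells in the imprinted falls was not tested. The levels do not tell which parental copy was read.

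Germ cells divide throughout this period, and cell cycle genes stayed high. Of 38 tested mitosis genes 0 were called, and their median change of 0.32 was close to the 0.29 of all tested genes. Ccnb1 was at 552 and 696 FPKM and Aurka at 242 and 289 FPKM. Of 47 tested replication genes 3 rose, against 3.71% of all tested genes. All 3 were of the origin recognition complex: Orc2 from 48.4 to 85.2 FPKM, Orc3 from 42.5 to 76.5 FPKM and Orc4 from 26.4 to 62.1 FPKM. Of the 3 only Orc3 passed relative to the median. The 6 genes of the MCM helicase were higher at E11.5 with 0 called, such as Mcm3 at 203 and 352 FPKM. As given above, 8641 of all 12904 tested genes were higher there. Ccnd2, for a D-type cyclin of the G1 phase, went down from 18.3 to 1.96 FPKM and was called. The inhibitor gene Cdkn1a (p21) rose from 7.49 to 26.6 FPKM and was not called relative to the median. Of 24 tested apoptosis genes 1 was called, Casp8, which fell from 5.82 to 0.998 FPKM, and Bax was at 172 and 371 FPKM without a call.

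Small changes such as those of Ung, Mga and Orc3 were called through small errors. At 50 FPKM or more in both stages, the median SE over 2321 genes was 0.46 and 124 had an SE below 0.3. Of all calls 90 had a log2 ratio of less than 1 in size, 76 of them rises, and none of these had an SE above 0.32. Why the deposited errors differ so among abundant genes was not tested.

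Energy metabolism showed opposite calls within 1 pathway. Of 24 tested genes of glycolysis and lactate 3 rose and 5 fell (2 and 5 relative to the median), with a median change of -0.18 on the log2(FPKM + 1) scale. Ldha, for the lactate dehydrogenase subunit that favours lactate production, fell from 838 to 97.8 FPKM, while Ldhb rose from 83.7 to 389 FPKM. The other falls lay at the ends of the pathway and within it. Slc2a3 (GLUT3; chromosome 6, 122677827 to 122692763), a glucose transporter gene, fell from 135 to 29.8 FPKM and Slc16a3 (MCT4), which exports lactate, from 39.9 to 9.67 FPKM, with log2 ratios of -2.18 ± 0.49 and -2.05 ± 0.32 (SE). Tpi1, the triose phosphate isomerase gene, fell from 180 to 58.0 FPKM. Eno3, an enolase gene of muscle, fell from 29.9 to 10.7 FPKM.

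The other 2 rises were isoforms of early steps. Pfkp, a phosphofructokinase gene, rose from 13.3 to 57.4 FPKM (log2 ratio 2.11 ± 0.51, SE). Hk1, hexokinase 1, rose from 12.5 to 37.7 FPKM and was not called relative to the median. Hk1, Pfkp and Tpi1 each share a locus in the table with another gene. Other abundant steps were not called: Pkm2 was at 2279 and 2291 FPKM, Gapdh at 228 and 202 FPKM, and Pgk1 at 411 and 283 FPKM. Slc2a1 (GLUT1), at 117 and 56.1 FPKM, was not called, although its 95% interval ran from -1.99 to -0.14. Of 24 tested hypoxia-inducible genes 1 rose and 1 fell: the lipid droplet gene Hilpda, named 2310016C08Rik in the table, rose from 6.78 to 18.02 FPKM, and the carbonic anhydrase gene Car12 fell from 16.0 to 3.46 FPKM. The rise of Hilpda was not called relative to the median.

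In the citric acid cycle and pyruvate entry 2 of 26 tested genes rose and 0 fell (1 and 1 relative to the median). The median change of this list was 0.50 on the log2(FPKM + 1) scale. Idh1, the cytosolic isocitrate dehydrogenase gene, rose from 23.1 to 74.2 FPKM (log2 ratio 1.68 ± 0.24, SE). Mpc1, a subunit of the carrier that brings pyruvate into mitochondria and named Brp44l in the table, rose from 19.09 to 88.6 FPKM and was not called relative to the median. Of the respiratory chain, 0 of 36 tested complex I genes and 0 of 46 genes of complexes II to V were called, and their median changes of 0.16 and 0.26 lay below that of all tested genes. Atp5b was at 2263 and 3457 FPKM.

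**Figure D3:**
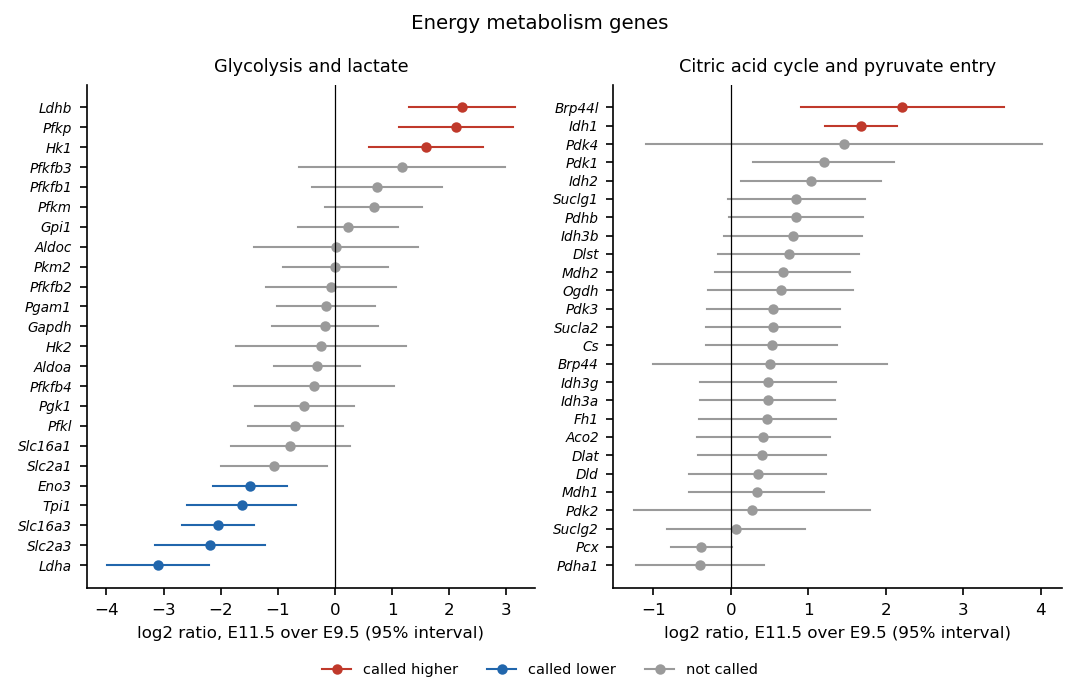
Points give the log2 ratio (E11.5 over E9.5) of each tested gene of glycolysis and lactate (left) and of the citric acid cycle and pyruvate entry (right), and bars the 95% interval from the SE. Red genes were called higher, blue ones lower and grey ones were not called. Ldha, Slc2a3, Slc16a3, Tpi1 and Eno3 lie below 0 and Ldhb, Pfkp and Hk1 above it. On the right 24 of the 26 genes lie above 0, and 8641 of all 12904 tested genes had the higher level at E11.5.

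Several rises were of germ cell copies of housekeeping genes. Rpl10l, an autosomal copy of the X-linked ribosomal protein gene Rpl10, rose from 3.83 to 75.0 FPKM, and Rpl39l from 1.18 to 32.7 FPKM. Rpl10 itself was at 180.5 and 169 FPKM and Rpl39 at 106 and 93.0 FPKM, and neither was called. These were the 2 calls among 82 tested cytosolic ribosomal protein genes, whose median change was -0.09 on the log2(FPKM + 1) scale. Psma8, the alpha subunit gene of a germ cell proteasome, rose from 4.11 to 29.5 FPKM, 1 of 2 rises among 46 tested proteasome genes, while the ubiquitous Psma7 was at 503 and 582 FPKM without a call. The other rise, of Psmd3, was from 124 to 313 FPKM and was not called relative to the median. Mrpl15 was the 1 call among 76 mitochondrial ribosomal protein genes, from 99.2 to 169 FPKM, and it was not called relative to the median. Reads of such copies can be shared with their parent genes, so the levels of the ribosomal copies are uncertain.

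**Figure D4:**
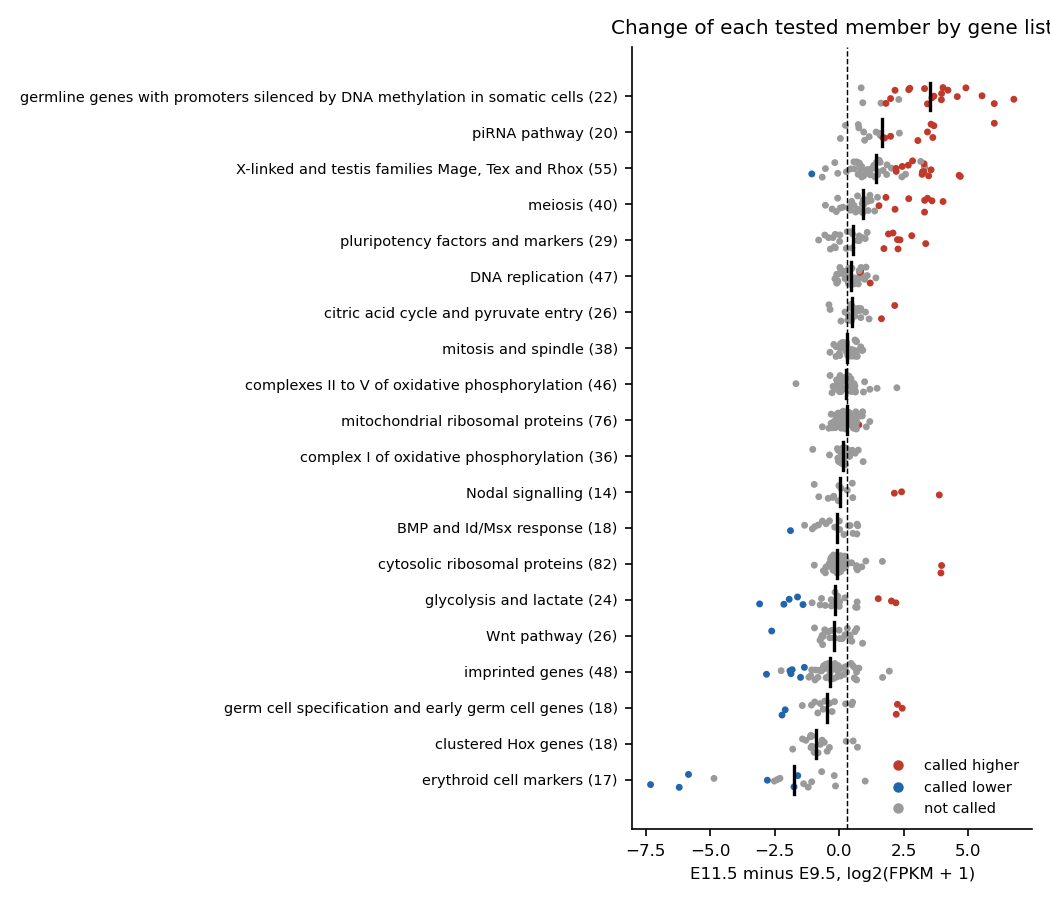
Each point is a tested gene, placed by its change in log2(FPKM + 1) from E9.5 to E11.5, in the list named at the left with its number of tested genes. Black bars mark list medians, from 3.52 for methylation-silenced germline genes to -1.75 for erythroid markers, and the dashed line the median of all tested genes, 0.29.

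Beyond the lists, the genes with the largest called changes included secreted and developmental factors. Spp1 (osteopontin) (chromosome 5, 104864130 to 104870072) rose from 2.36 to 67.2 FPKM with a log2 ratio of 4.83 ± 0.76 (SE). Apobec2, a member of the cytidine deaminase family, was listed at 0 and 16.1 FPKM, and Adh1, an alcohol dehydrogenase gene, at 0 and 7.13 FPKM. In all 31 called genes were listed at 0 at E9.5 and 1, Xkr5, at 0 at E11.5. The transketolase-like genes Tktl1, at 0 and 3.51 FPKM, and Tktl2, at 0 and 6.02 FPKM, were among them. The highest of them, LOC624853, at 0 and 285 FPKM, shares its locus with the heat shock gene Hspa8, at 4223 and 7053 FPKM and not called, so its reads may be those of Hspa8. Unnamed transcripts among the largest rises were 4930550L24Rik, from 3.86 to 92.0 FPKM, and Gm41, listed at 0 and 17.6 FPKM, both on the X chromosome.

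Among the largest falls Gpc3 (chromosome X, 49625604 to 49967151), a glypican gene that restrains growth, went from 181 to 17.4 FPKM (log2 ratio -3.39 ± 0.50, SE). Gpc3 shares its locus with another gene, so part of its reads may belong to that gene. Enpp2 (autotaxin), which makes lysophosphatidic acid, fell from 71.6 to 5.02 FPKM. Ap1m2, an adaptor gene of epithelial sorting, fell from 186 to 24.4 FPKM. Each was thus between 7.60- and 14.3-fold lower in the E11.5 libraries than in those of E9.5.

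Plac1, an X-linked placental gene, fell from 7.80 to 0.136 FPKM, and Nkx1-2, a homeobox gene of the caudal embryo, from 11.6 to 0.301 FPKM. Camk1g, a calmodulin-dependent kinase gene, fell from 15.3 to 0.505 FPKM, Acp5, an acid phosphatase gene, from 10.8 to 0.485 FPKM and Naprt1, of NAD synthesis, from 10.7 to 0.526 FPKM. Ermn fell from 12.4 to 0.808 FPKM, and the unnamed transcripts AI506816 and AA543186 from 22.9 to 0.438 FPKM and from 13.5 to 0.287 FPKM. These were moderate levels at E9.5 that ended below 1 FPKM. AI506816 shares its locus with another gene, so part of its reads may belong to that gene.

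RNA of other cells differed between the stages. In bulk samples fewer cells of a type and less RNA per cell cannot be told apart. Of 17 tested erythroid markers 0 rose and 6 fell (7 relative to the median), against 3.71% and 1.92% of all tested genes. The summed level of the 19 matched markers was 2115 FPKM at E9.5 and 70.3 FPKM at E11.5. The falls were not confined to globins: the transcription factor gene Klf1 went from 6.61 to 0.104 FPKM, the membrane transporter gene Slc4a1 from 3.57 to 0.357 FPKM, and the erythropoietin receptor gene Epor from 2.10 to 0.0194 FPKM. Gata1, listed at 4.72 and 0 FPKM, was not called. At E11.5 the defining markers Gata1, Rhag, Ermap and Nfe2 were listed at 0.

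Gut endoderm, through which germ cells migrate, gave 3 falls and 0 rises among 12 tested markers, against 1.92% and 3.71% of all tested genes. Among the 12, 5 were higher and 7 lower at E11.5. The summed level was 300.5 and 117 FPKM over the 24 matched markers, most of it from Cldn7 at both stages. Cldn7, a tight junction gene, fell from 198 to 60.3 FPKM, Krt8 from 11.7 to 2.11 FPKM and the caudal homeobox gene Cdx2 from 21.4 to 4.61 FPKM. Of the endoderm genes Sox17 was at 2.28 and 0.611 FPKM and Foxa2 at 0.748 and 1.09 FPKM, and neither was called. The falls of Wnt5a, Fgf8, Nkx1-2, Gpc3, Enpp2, Ap1m2, Ldha and the imprinted genes went with these falls, and the part that RNA of other cells had in them was not tested.

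Markers of somatic cells of the ridge were low at both stages. The summed level of 29 markers of gonadal and mesonephric soma was 29.4 and 88.9 FPKM, with 19 and 8 of them listed at 0. The higher sum at E11.5 was that of Dmrt1, also a germ cell gene, which rose from 4.49 to 63.9 FPKM: the other 28 summed to 24.87 and 24.99 FPKM, a split made after the values were seen. Of 15 tested markers 10 were higher and 5 lower at E11.5, a split near the 8641 and 4263 of all tested genes, and 2 were called. Besides Dmrt1, Lhx1, a mesonephric gene, rose from 0.183 to 8.91 FPKM. The defining genes Wt1 and Nr5a1 were listed at 0 at E9.5 and at 0.894 and 0.643 FPKM at E11.5, and were not called. The 19 macrophage markers summed to 6.94 and 21.6 FPKM, with 15 and 3 at 0 and 0 of 12 tested called.

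Of 7 tested endothelial markers Esam rose from 0.141 to 10.1 FPKM and Tek from 0.104 to 1.64 FPKM, the latter without a call relative to the median, while Pecam1, which germ cells also express, was at 60.4 and 70.8 FPKM. Neural markers gave 1 rise, Pax6 from 0.0620 to 7.54 FPKM, and 1 fall, Ednrb from 2.99 to 0.460 FPKM, among 11 tested. Of 15 tested mesenchyme markers 1 fell, Meox1 from 1.35 to 0.0352 FPKM. The neural markers summed to 18.6 and 39.4 FPKM, the 18 endothelial ones to 122 and 138 FPKM and the 32 mesenchyme ones to 263 and 266 FPKM. The part of RNA of ridge cells in the rises was not tested.

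**Figure D5:**
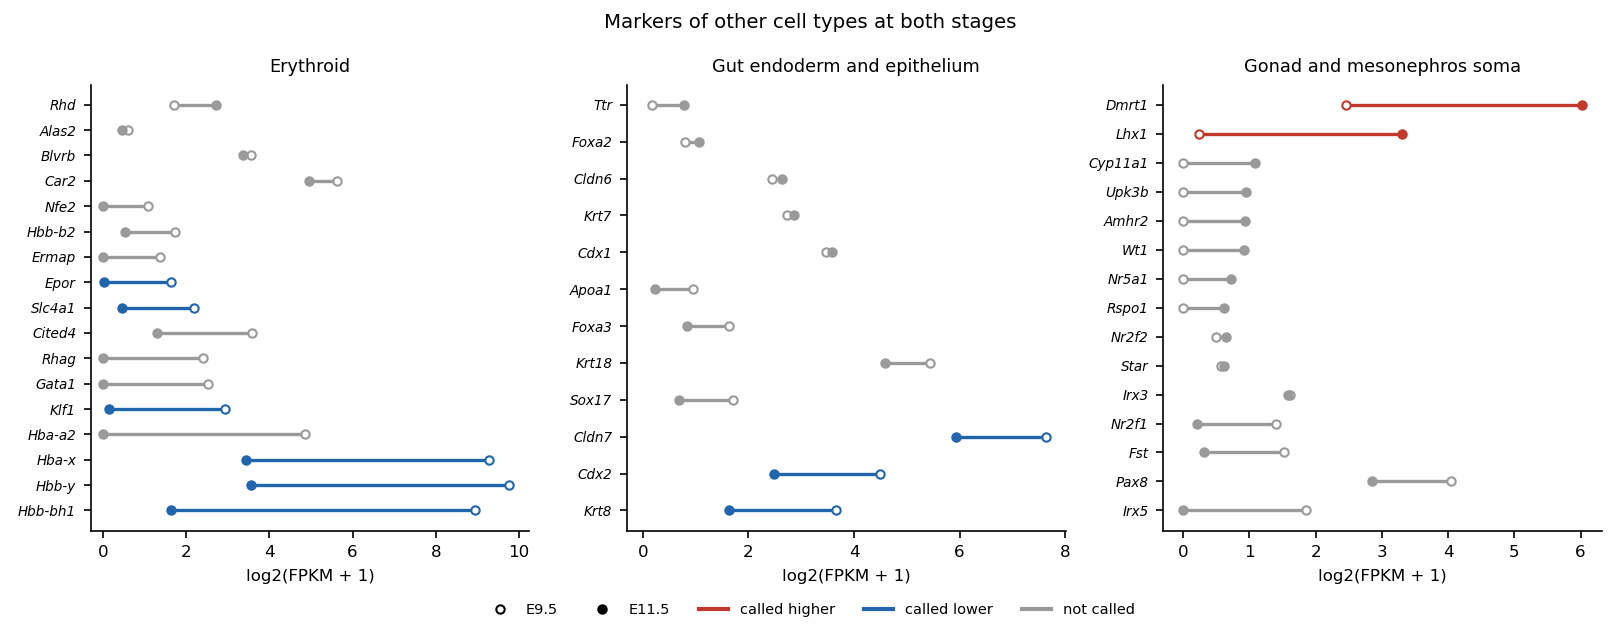
Open circles give the level at E9.5 and filled circles that at E11.5, as log2(FPKM + 1), for each tested marker of erythroid cells (left), gut endoderm and epithelium (centre) and gonadal and mesonephric soma (right). Blue lines mark genes called lower, red ones genes called higher and grey ones genes not called. Hbb-bh1, Hbb-y and Hba-x have the longest blue lines, and the somatic markers Wt1 and Nr5a1 start at 0.

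The authors' other stage tables carry the same E11.5 libraries beside E13.5f and E13.5m, names used as the tables give them. They were normalised separately: the E11.5 levels there are 0.870 and 0.891 times those used above (medians), so values are given side by side and not tested across tables. In them Mael was at 61.2 FPKM at E11.5 and 442 FPKM at E13.5f, and at 62.7 and 302 FPKM with E13.5m. Tdrd12 stayed near its E11.5 level, at 92.9 and 96.9 FPKM with E13.5f and 95.2 and 95.02 FPKM with E13.5m. Mael therefore stood higher again at E13.5, and Tdrd12 did not.

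The Nodal genes had unlike levels under the 2 labels. Lefty1 was at 37.2 FPKM at E11.5 and 2.43 FPKM at E13.5f, and at 38.1 and 319 FPKM with E13.5m. Tdgf1 was at 37.8 and 0.845 FPKM with E13.5f, and at 38.7 and 26.6 FPKM with E13.5m. Rhox9, at 1025 and 756 FPKM with E13.5f, was at 1050.4 and 172 FPKM with E13.5m. Slc2a3 was lower again at E13.5, at 26.0 and 10.2 FPKM with E13.5f and 26.6 and 4.83 FPKM with E13.5m. Pfkp, which had risen to E11.5, was at 49.9 and 16.5 FPKM with E13.5f and at 51.1 and 14.1 FPKM with E13.5m.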

How the data were processed

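RNA was sequenced from wild-type mouse germ cells at E9.5 and E11.5. Per the submitters' processing notes, Bowtie, TopHat 1.3.1, Cufflinks 1.2.1 and Cuffdiff 1.2.1 were used with build mm9. Their roles and settings are not given in the sources used here. The authors deposited 1 FPKM value per gene and stage, pooling the libraries, per the file headers. They also deposited a test statistic (a score), a p-value and a q-value per gene. Depth is therefore unknown.

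From these values the log2 ratio was computed from the deposited FPKM. Dividing it by the deposited statistic gave its SE. The table's start positions were raised by 1, since 2563 of 17017 spans equal annotated gene lengths when starts count from 0 and 424 when they count from 1. Intervals are the ratio with normal 95% limits. No ratio or SE was given for the 759 tested genes at 0 in a stage. The test relative to the median was a two-sided normal test with Benjamini-Hochberg adjustment over 12145 genes, tested on simulated data. Changes in log2(FPKM + 1), a pseudocount of 1, understate those of low genes. Calls used a threshold of 0.05.

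The gene lists, the comparison and the rules were chosen with earlier results of these data known. A few results are not reported here. List members were matched by symbol, or by a synonym in a RefSeq table of GRCm38.p6. The genes named are the markers Dazl, Ddx4, Asz1 and Hbb-y, the 15 largest called rises and falls in log2(FPKM + 1) among genes with 1 symbol and 5 FPKM or more in a stage, called and some uncalled members of each list, and the highest of the called genes at 0 in a stage. Promoter windows were the first listed per gene. Other settings tried were a q threshold of 0.01, the adjustment repeated, minimum levels, a minimum ratio, other scalings, a pseudocount of 0.1 and 1 gene per symbol. The work was done in Python 3.11.15 with scipy 1.17.1, numpy 2.4.6 and pandas 2.3.3, and figures with matplotlib 3.10.9.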

Additional observations from a re-analysis of the deposited data

How the results depend on the processing

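With a threshold of 0.01, 232 genes rose and 116 fell. With adjustment only over genes at 1 FPKM or more in both stages, 264 rose and 96 fell, a setting that leaves out genes low in either stage. Relative to the median log2 ratio 227 rose, and relative to the ratio of summed FPKM 226 rose. Under these 2 settings 339 and 340 fell, within 1.5 times the 248 of the deposited calls. Adjustment computed again, 1 FPKM in at least one stage, a minimum log2 ratio of 1, the test from the SE without a shift and 1 gene per symbol gave between 403 and 479 rises and between 234 and 250 falls. After the data were seen, leaving out genes that share a locus gave 403 rises and 207 falls, and leaving out genes at 50 FPKM or more in both stages with an SE below 0.3 gave 434 and 237. Of the 119 named calls with a ratio, 44 were not called at the threshold of 0.01, 20 were not called relative to the median and 0 changed sign there. Subtracting the median turned the median change of 8 of the 41 lists below 0, those of Nodal signalling, migration, histone methylation, mitosis, cyclins, both respiratory chain lists and mitochondrial ribosomal proteins. Requiring 1 FPKM in a stage turned 3 below 0, Nodal signalling, gonadal soma and neural markers, and a pseudocount of 0.1 turned 0.
No paired analysis was possible because the table holds 1 pooled value per stage and no value per library, and for the same reason no library could be left out. Levels near 1 FPKM are the least certain: the median SE was 1.17 for genes between 0.1 and 2 FPKM in a stage.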

Other observations

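Clustered Hox genes, which record position along the body axis, were low at both stages. Of 39 members 18 were tested and 0 were called, with a median change of -0.90 on the log2(FPKM + 1) scale. Of the 18, 15 had a lower level at E11.5, against 4263 of all 12904 tested genes. Only 10 of the 18 were at 1 FPKM or more in a stage, and 7 had an SE. Of the 39, 18 were listed at 0 at E9.5 and 23 at E11.5. Entry into the test depended on these low levels, so the counts describe the tested members and not the whole list. Hoxb9 was at 2.48 and 0.298 FPKM and Hoxd9 was listed at 2.49 and 0 FPKM. Genes of MHC class I and II, which present antigens, gave 0 rises and 2 falls among 18 tested. H2-M3 fell from 7.36 to 0.142 FPKM and H2-Oa from 7.78 to 0.519 FPKM, both named after their values were seen. Among 217 tested solute carrier genes 6 rose and 10 fell. The amino acid transporter genes Slc1a3, from 16.4 to 3.84 FPKM, and Slc1a5, from 50.7 to 16.4 FPKM, and the iron exporter gene Slc40a1, from 75.5 to 21.9 FPKM, were among the falls and were chosen after their values were seen. Of 68 replication-dependent histone genes 64 were tested, and 1 was called, Hist2h3c1, which fell from 4.64 to 0.143 FPKM.

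The labels give no sex for these embryos. Of 7 tested Y-linked genes Uty fell from 2.72 to 0.432 FPKM, and Eif2s3y was at 122 and 53.4 FPKM without a call. Eif2s3y passed as a fall relative to the median. A difference in the share of male cells between the pools and a difference in level per cell cannot be told apart.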
